A study of Mus musculus with 2 samples.

Results

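The 308 regions described here had much less acetylation of histone H3 at lysine K9 (H3K9ac) in leukemic spleen cells with the GFI1-36N form than in those with GFI1-36S. They were chosen from a table of 20615 H3K9ac regions by 3 limits. The region lay on chromosomes 1 to 19 other than chromosome 15, the mean log2 read number of both libraries was 6 or more (64 reads), and the log2 difference, 36N minus 36S, was -1.5 or less (at least 2.83 times fewer reads in 36N). The first 2 limits left 10910 well-covered regions, of which the 308 are 2.82%. Over all regions, 3.88% reached the limit on the difference. The difference itself chose the regions, so their low values are a description and not a finding. The other 10602 well-covered regions serve as the comparison.

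The study compared 2 chromatin immunoprecipitation libraries, 1 per genotype. Both came from spleens of leukemic mice with the NUP98/HOXD13 fusion, after red cells were lysed, and both kinds of mice carried a human GFI1 cDNA. One strain was labelled Gfi1 36S/S-Nup98/HoxD13 and the other Gfi1 36N/N-Nup98/HoxD13. The labels do not say how many mice stand behind each library or how old they were. With 1 library per genotype there is no replicate check and no test. Intervals beside a difference are exact 95% intervals (Clopper-Pearson) of the 2 read numbers, and they cover counting error only.

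H3K9ac is placed by histone acetyltransferases, removed by deacetylases, and found mainly at active promoters and enhancers. GFI1 is a zinc finger repressor of blood cells that recruits histone deacetylases and the demethylase LSD1 to its target genes. NUP98/HOXD13 is a leukemia fusion that keeps HOX programmes on in blood progenitors. A leukemic spleen holds leukemic cells together with red cell precursors, lymphocytes and other cells. In such bulk tissue, fewer cells of a type and less acetylation per cell cannot be told apart.

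Promoter sequences of 10 genes are shown. The stefin, interferon and red cell genes form the groups described most fully here and differ in part in the motifs they hold. All are from RefSeq, build GRCm38.p6 (the submitters' processing notes name mm10), and run 5′ to 3′ on the gene's strand from 250 bases before to 50 after the annotated start. Capitals mark GAAA, any 2 bases and GAAA again, the core of an interferon response element, and AGATAA, the letters read by GATA factors, searched on both strands, so that TTATCT and the reverse complement of the first motif are also in capitals. Overlapping matches run together. The first 3 are stefin genes, which encode inhibitors of cysteine proteases and whose regions included the lowest value of all. Stfa2l1 is at chr16:36156561-36156860, plus strand, Cstdc4 at chr16:36183962-36184261, plus strand, and Stfa2 at chr16:36408314-36408613, minus strand. They hold neither motif.
Stfa2l1: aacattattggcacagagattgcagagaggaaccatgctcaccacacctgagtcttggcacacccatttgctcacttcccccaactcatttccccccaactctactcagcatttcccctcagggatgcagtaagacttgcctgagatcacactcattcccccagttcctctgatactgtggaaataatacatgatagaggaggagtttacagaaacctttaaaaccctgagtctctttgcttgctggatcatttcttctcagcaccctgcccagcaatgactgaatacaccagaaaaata
Cstdc4: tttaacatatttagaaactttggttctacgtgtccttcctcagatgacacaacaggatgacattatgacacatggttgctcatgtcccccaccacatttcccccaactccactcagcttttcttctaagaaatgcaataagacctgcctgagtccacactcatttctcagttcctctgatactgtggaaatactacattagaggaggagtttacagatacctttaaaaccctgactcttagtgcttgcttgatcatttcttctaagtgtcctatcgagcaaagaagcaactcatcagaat
Stfa2: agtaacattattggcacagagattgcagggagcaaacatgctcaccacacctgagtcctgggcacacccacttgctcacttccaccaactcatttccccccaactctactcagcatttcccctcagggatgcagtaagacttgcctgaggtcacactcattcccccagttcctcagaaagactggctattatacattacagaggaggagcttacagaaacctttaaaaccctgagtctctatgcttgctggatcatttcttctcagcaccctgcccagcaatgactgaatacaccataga

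The Stfa2l1 and Stfa2 promoters were identical in 90.5% of alignment columns, Stfa2l1 and Cstdc4 in 72.4%, and Cstdc4 and Stfa2 in 68.9%. Reads from such copies could be placed at the wrong one, so the division of reads among them is uncertain. The Stfa2l1 and Stfa2 windows hold no CG dinucleotide at all, and that of Cstdc4 holds 2.

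The next 3 promoters are from interferon-stimulated genes and hold the interferon motif, and that of Oas3 also holds the GATA letters. Oas3 is at chr5:120777610-120777909, minus strand, Oas1a at chr5:120907476-120907775, minus strand, and Rsad2 at chr12:26456403-26456702, minus strand.
Oas3: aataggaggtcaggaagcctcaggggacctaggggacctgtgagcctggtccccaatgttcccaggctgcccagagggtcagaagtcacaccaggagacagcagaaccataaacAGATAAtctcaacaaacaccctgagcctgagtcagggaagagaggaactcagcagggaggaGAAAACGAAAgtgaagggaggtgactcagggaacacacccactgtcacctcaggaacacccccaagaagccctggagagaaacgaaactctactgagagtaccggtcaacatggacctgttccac
Oas1a: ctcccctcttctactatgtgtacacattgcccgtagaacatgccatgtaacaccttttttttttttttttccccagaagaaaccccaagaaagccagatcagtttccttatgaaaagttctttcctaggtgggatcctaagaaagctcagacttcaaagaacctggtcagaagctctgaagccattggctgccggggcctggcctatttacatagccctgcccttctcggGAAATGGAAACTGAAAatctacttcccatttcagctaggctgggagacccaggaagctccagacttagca
Rsad2: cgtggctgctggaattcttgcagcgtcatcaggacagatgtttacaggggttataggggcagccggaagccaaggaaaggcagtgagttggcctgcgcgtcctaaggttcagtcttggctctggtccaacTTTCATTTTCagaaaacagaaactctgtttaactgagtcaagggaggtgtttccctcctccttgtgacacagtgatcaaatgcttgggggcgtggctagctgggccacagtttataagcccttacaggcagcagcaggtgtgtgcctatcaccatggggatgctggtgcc

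The last of the motif examples are from red cell genes and hold the GATA letters. Hbb-bs is at chr7:103827879-103828178, minus strand, Tmcc2 at chr1:132367899-132368198, minus strand, and Epor at chr9:21963527-21963826, minus strand. Igf2bp3, at chr6:49214905-49215204, minus strand, is shown beside them as a promoter with many CG dinucleotides. Its window holds 25, against 2 to 7 in the other 3, and also 1 interferon motif.
Hbb-bs: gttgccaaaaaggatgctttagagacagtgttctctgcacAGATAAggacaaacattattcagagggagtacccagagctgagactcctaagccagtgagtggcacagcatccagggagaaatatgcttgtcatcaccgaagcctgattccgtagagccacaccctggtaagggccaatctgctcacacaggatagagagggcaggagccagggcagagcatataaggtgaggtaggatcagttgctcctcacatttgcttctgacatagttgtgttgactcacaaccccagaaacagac
Tmcc2: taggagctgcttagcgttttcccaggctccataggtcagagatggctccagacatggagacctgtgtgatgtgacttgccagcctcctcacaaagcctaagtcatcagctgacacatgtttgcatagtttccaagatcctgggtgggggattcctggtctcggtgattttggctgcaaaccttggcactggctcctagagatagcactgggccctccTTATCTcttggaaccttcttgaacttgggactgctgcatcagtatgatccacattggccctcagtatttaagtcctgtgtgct
Epor: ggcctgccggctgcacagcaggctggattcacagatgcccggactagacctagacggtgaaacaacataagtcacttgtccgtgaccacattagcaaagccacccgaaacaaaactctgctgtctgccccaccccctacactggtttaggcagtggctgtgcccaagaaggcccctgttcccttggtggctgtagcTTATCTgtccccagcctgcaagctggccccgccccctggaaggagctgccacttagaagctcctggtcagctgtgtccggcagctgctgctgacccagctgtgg
Igf2bp3: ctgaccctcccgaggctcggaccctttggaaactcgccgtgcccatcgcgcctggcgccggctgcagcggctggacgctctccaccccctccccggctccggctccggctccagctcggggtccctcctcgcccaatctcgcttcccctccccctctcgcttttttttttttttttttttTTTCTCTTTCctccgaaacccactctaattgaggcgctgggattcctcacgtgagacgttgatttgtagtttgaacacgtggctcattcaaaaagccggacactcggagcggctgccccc

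Most of the 308 regions lay close to the limit. The difference was between -1.5 and -2 in 236 of them, -2 or lower in 72, and -3 or lower in 11. The counting interval lay wholly below 0 in all 308, wholly at or below -1 in 307, and wholly at or below the limit of -1.5 in 101. The same read numbers chose the regions, so these counts follow largely from the limits and are no evidence of a fall. Just inside the limit were the regions of Cdkn1a, Treml2 and 3830408C21Rik, and just outside it those of Hnrnpf, Slc6a13, Dnajb12 and Mfsd2b, all within rounding of -1.5. Together the 308 regions had 99634 reads in 36S, or 2.0% of that library's reads in regions, and 27787 in 36N, or 0.844%.

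The 2 libraries also differed as a whole. Reads in regions numbered 4989632 in 36S and 3292869 in 36N, a ratio of 0.672, and the median difference was -0.40 over all regions and -0.61 over the well-covered ones. As deposited, 123 well-covered regions (1.13%) were higher in 36N by 1.5 or more, so 71.5% of the regions past either limit were lower. Relative to the median region that share was 27.8%, after a lowess trend on the level 36.3%, and after quantile normalization 38.3%. Under these scalings 92, 118 and 129 regions stayed at or below -1.5, all of them among the 308. The scalings moved differences upward, with 239, 207 and 208 regions then at 1.5 or more. That the regions kept are among the 308 therefore follows from the scaling and is no support for the set. Neither an input nor a spike-in entered the comparison.

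**Figure D1:**
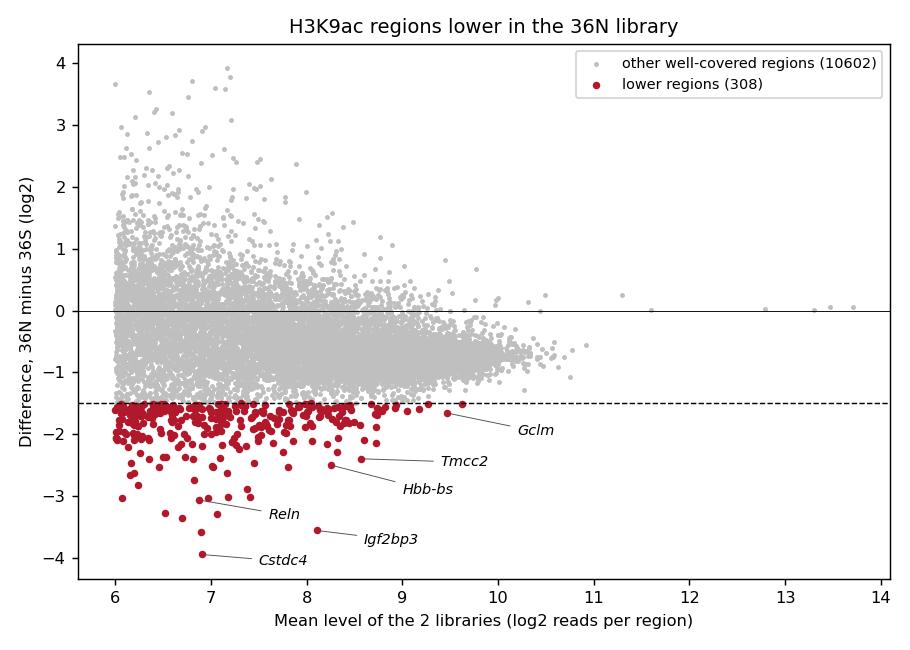
Each point is 1 well-covered region, with the mean log2 read number of both libraries on the x axis and the log2 difference, 36N minus 36S, on the y axis. Red points are the 308 regions at or below the dashed limit of -1.5, grey points the other 10602, and the cloud as a whole lies below 0, with a median of -0.61.

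The 4 stefin regions on chromosome 16 together had 1696 reads with 36S and 155 with 36N. The region over Gm5483, which RefSeq names Cstdc4, at chr16:36184201-36186750, had 469 reads in 36S and 30 in 36N (difference -3.94, 95% interval -4.52 to -3.41), the lowest difference of the 308. The Stfa2 region had 413 and 34 reads (-3.58, interval -4.13 to -3.07). The Stfa3 region had 332 and 32 reads (-3.35) and the Stfa2l1 region 482 and 59 (-3.0). The 4 regions form 2 pairs within 298.65 kb, with 218.85 kb between the pairs, and the weaker Gm1975 region in that gap, below the level limit, had 40 and 11 reads (-1.84). On either side the difference was smaller or of the other sign: Fam162a had 569 and 274 reads (-1.03), and Casr, below the level limit, 21 and 25 (0.28).

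Other regions among the 25 lowest lay at genes of many kinds. Igf2bp3, an oncofetal RNA-binding protein, had at its promoter (chr6:49213051-49216350) 944 reads in 36S and 79 in 36N (-3.55). A region assigned to Gm15494 and covering the promoter of Eps8l1, a relative of the actin regulator EPS8, had 417 and 42 reads (-3.28). A region inside Rbm19, which encodes an RNA-binding protein of ribosome synthesis, and over the promoter of Gm10390 had 284 and 29 (-3.27). An Rbm19 region of higher mean level was at -0.25. Reln, the secreted glycoprotein reelin, had 340 and 40 reads (-3.06), and a region inside the transcription factor gene Sox5 359 and 43 (-3.03), where a weaker Sox5 region was at 0.21. In each of the low regions the 36N library kept a small share of the 36S reads, and the highest upper bound of these 5 counting intervals was -2.58, at Sox5.

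**Figure D2:**
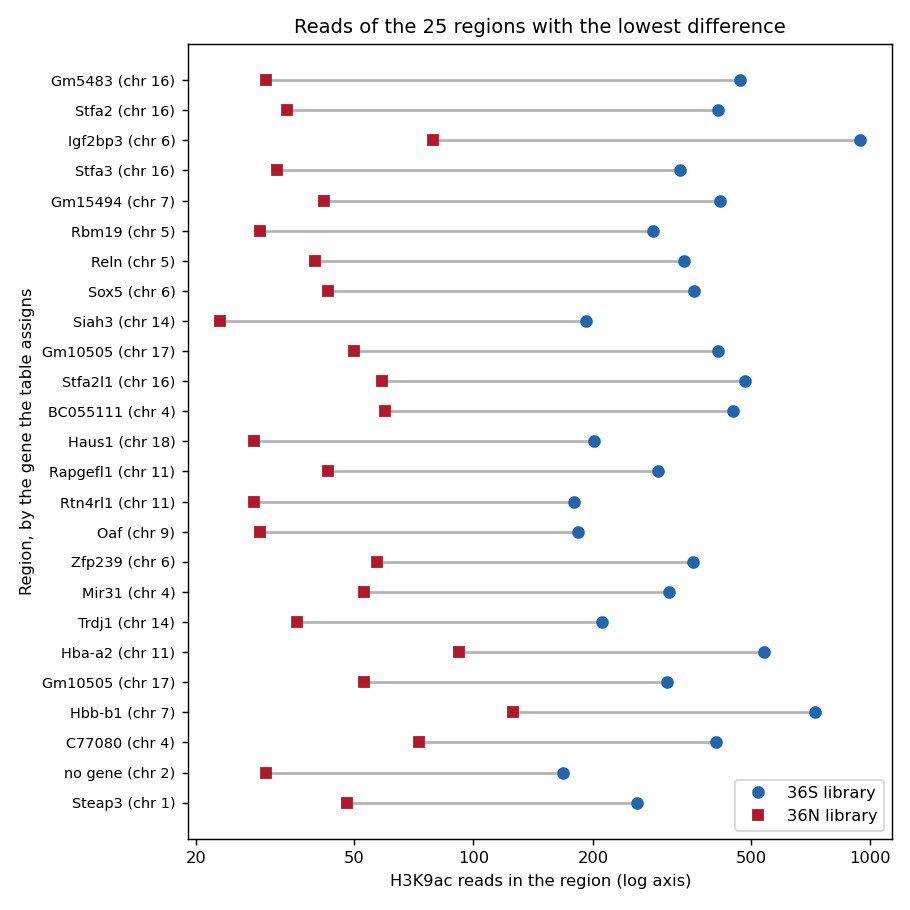
Reads per region (log axis) in the 36S and the 36N library for the 25 regions with the lowest difference. Every one has fewer reads in 36N, as the choice of regions requires, from 30 against 469 at Gm5483 (Cstdc4 in RefSeq) to 48 against 258 at Steap3.

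Interferon-stimulated genes, which are switched on by interferon signalling and encode antiviral proteins, gave the most genes of any list. Of 40 listed genes with a well-covered region, 11 had a region among the 308, or 11 of 45 regions (24.4%) beside the background of 2.82%. The median difference of the 45 regions was -1.08, against -0.61 over all well-covered regions, and 4 of the 45 were above 0. Which genes were counted was set by the same difference, so the share is a description.

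The 2′-5′ oligoadenylate synthetases, which make the second messenger that activates RNase L, formed the longest run of regions. The 5 regions lay within 160.35 kb of chromosome 5 (chr5:120747751-120908100) with no other region among them. Oas2 had 382 reads in 36S and 98 in 36N (-1.94), Oas3 801 and 184 (-2.10), and Oas1c 538 and 177 (-1.58). Oas1g had 243 and 60 reads (-1.99) and Oas1a 354 and 94 (-1.89). The Oas1a and Oas1g promoters were identical in 85.3% of alignment columns and those of Oas1a and Oas1c in 49.3%. The Oas1 genes are close relatives, and reads could be split between such copies, so the separate values of Oas1a and Oas1g in particular are uncertain. Their relative Oasl2, elsewhere on the same chromosome, had 591 and 166 reads (-1.81).

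Other interferon genes spread over further chromosomes. Rtp4, a chaperone-like protein of the interferon response, had 705 reads in 36S and 142 in 36N (-2.29). Rsad2, the antiviral enzyme viperin, had 550 and 126 reads (-2.10), Lgals3bp, a secreted galectin-3 ligand, 622 and 180 (-1.76), and Trim30a 293 and 101 (-1.51). The interferon-inducible GTPases Tgtp1 and Tgtp2 also had such regions, assigned in the table to Gm12185 (244 and 75 reads, -1.68) and Olfr56 (399 and 129, -1.60). They are near-identical copies and their separate values are uncertain. Other listed genes had values near or above 0: Mx1, an antiviral GTPase, had 64 and 102 reads (0.70), Ifitm3 114 and 120 (0.10), and Slfn8 252 and 242 (-0.03).

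**Figure D3:**
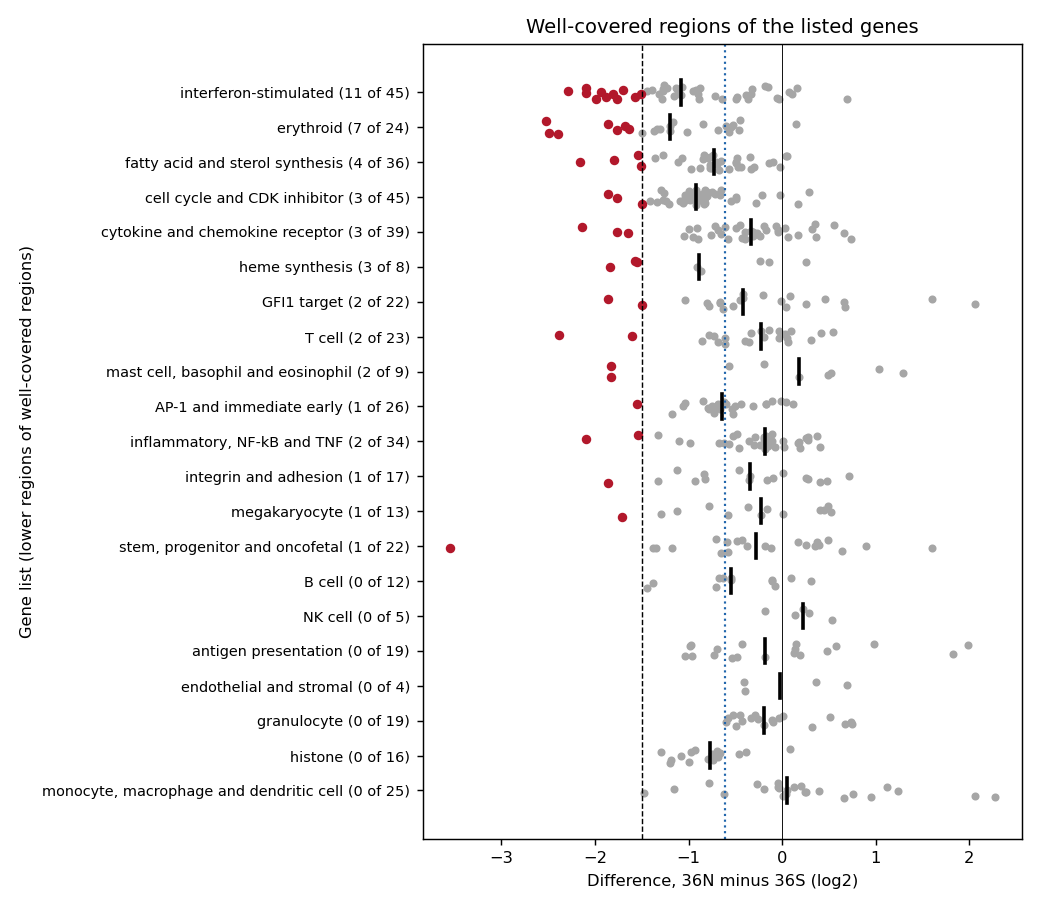
Log2 difference, 36N minus 36S, of each well-covered region assigned to a gene of the 21 lists. Red points are regions among the 308, grey points the others, black bars the list medians and the dotted blue line the median of all well-covered regions (-0.61); the erythroid (-1.20) and interferon (-1.08) lists have the lowest medians.

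Red cell genes were the other large group. Of 20 erythroid genes with a well-covered region, 7 were among the 308, or 7 of 24 regions (29.2%, beside 2.82% of all well-covered regions), and the median of the 24 was -1.20. Hba-a2, an alpha globin (chr11:32296951-32298600, gene body), had 538 reads in 36S and 92 in 36N (-2.52). The beta globin region, named Hbb-b1 in the table and Hbb-bs in RefSeq (chr7:103825801-103828350, with the promoter), had 724 and 126 (-2.50). Globin genes are near-identical copies, so reads could be split among them. Tmcc2, a membrane protein gene on the erythroid list, had 873 and 163 reads (-2.39).

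Genes of the red cell membrane and its hormone receptor had smaller differences. Epb4.2 (Epb42), a protein of the membrane skeleton, had 508 and 137 reads (-1.86), and Epor, the erythropoietin receptor, 628 and 182 (-1.76). Rhag and Rhd, parts of the Rh complex, had 254 and 78 (-1.68) and 454 and 143 (-1.64). The table's Actl6b region also covers the promoter of Tfr2, a transferrin receptor that partners EPOR, with 413 and 137 reads (-1.57). Mfsd2b, a sphingolipid transporter of red cells, was just outside the limit. The transcription factor gene Tal1 had 273 and 186 (-0.53), which is above the median of well-covered regions.

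Heme and iron genes were part of the same set. Of 8 heme genes with a well-covered region, 3 had it among the 308 (37.5% of 8 regions, beside 2.82% of all well-covered regions). Tspo2, an erythroid membrane protein, had 416 reads in 36S and 114 in 36N (-1.84), the heme breakdown enzyme gene Blvrb 513 and 169 (-1.58), and the transporter gene Abcb6 570 and 191 (-1.55). The others included Alas1, the general form of the first enzyme of heme synthesis, with 578 and 514 reads (-0.14), and Hmox1, heme oxygenase, with 94 and 110 (0.25). Steap3, the ferrireductase of transferrin-bound iron uptake, had regions of 258 and 48 reads (-2.40) and 199 and 67 reads (-1.54), while its strongest region was at -1.15.

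T cell loci entered the set in part. Themis, a protein of thymocyte selection, had at its promoter (chr10:28668001-28670850) 313 reads in 36S and 59 in 36N (-2.38), and Lck, the kinase of the T cell receptor, 514 and 166 (-1.60). Regions over receptor segments were also low: Trdj1 of the delta chain had 211 and 36 reads (-2.52), Trbj1-1 of the beta chain 341 and 71 (-2.24), and Trbj2-1 269 and 74 (-1.84). The table's Gm16565 lies over Cd247, the receptor's zeta chain, and had 2 regions, of 180 and 51 reads (-1.79) and 237 and 80 (-1.54). The region assigned to Cd247 itself had 143 and 123 reads (-0.19), and that of Trac, the constant segment of the alpha chain, 112 and 94 (-0.23). Of 18 listed T cell genes with a well-covered region 2, Lck and Themis, were among the 308. They gave 2 of 23 regions (8.70%, beside 2.82% of all well-covered regions), and the median of the 23 was -0.23. Satb1, a chromatin organiser, had 412 and 420 reads (0.05) in its stronger region.

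Mast cell genes showed a like division. Il1rl1, the receptor of interleukin-33, had 159 and 44 reads (-1.83) and Hdc, the histamine-forming enzyme, 260 and 72 (-1.83). A further Il1rl1 region, of higher mean level but with fewer 36S reads, had 106 and 91 (-0.19). An Hdc region of similar mean level had 111 and 157 (0.53). Of the list's 9 regions 2 were among the 308 (22.2%, beside 2.82% of all well-covered regions), and the median of the 9 was 0.18. Il9r, the interleukin-9 receptor, had 196 and 46 reads (-2.06) and lies less than 100 kb from the Hba-a2 region on chromosome 11.

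Marker genes of the cell types a spleen can hold moved in different directions, counting for each gene the region of highest level. Of 15 erythroid markers 5 had a region, with 57 to 724 reads in 36S and 27 to 225 in 36N, and their summed reads were 2515 in 36S and 652 in 36N. Of these 5, Epor, Hba-a2 and Hbb-b1 are in the set and were chosen for their difference; without them the sums were 625 and 252. The other 10, Klf1, Slc4a1 and Alas2 among them, had no region under that symbol. For 6 of 10 T cell markers the sums were 1316 (82 to 514 per gene) and 535 (33 to 166), with Cd3e, Cd4, Cd8a and Tcf7 without a region. Without Lck and Themis, which are in the set, the T cell sums were 489 and 310. For 3 of 8 B cell markers the sums were 605 (15 to 499) and 217 (31 to 103) with a median difference of -0.11, and most of the 36S reads were those of Tnfrsf13c, on chromosome 15. Sums were 2757 and 2140 for 6 of 9 granulocyte markers and 1035 and 980 for 6 of 7 stem or progenitor markers. For 7 of 9 monocyte or macrophage markers they were 2564 and 3145, with 1712 of the 36S reads from 1 gene. Megakaryocyte markers had 798 and 424, dendritic 636 and 382, NK 371 and 484, and endothelial or stromal markers 145 and 186. Mast or basophil markers had 315 and 148, and 55 and 76 without Hdc, which is in the set. Over all regions the ratio of 36N to 36S reads was 0.672. The part of cell composition in the low values at red cell and T cell genes was not tested.

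Growth control and lipid genes supplied a few strong regions. Cdkn1a, the CDK inhibitor p21 and a known GFI1 target, had 1036 reads in 36S and 359 in 36N (-1.5), at the limit. The neighbouring region over the non-coding RNA gene Trp53cor1 (Gm16197 in the table) had 340 and 90 (-1.89). Cdkn2a, the locus of p16 and p19ARF and also on the GFI1 target list, had 620 and 168 reads (-1.86). Ccnd3, cyclin D3, had 290 and 84 (-1.76), and its stronger region 471 and 193 (-1.26). Relative to the lowess trend Cdkn1a was at -0.76, Cdkn2a at -1.20 and this low Ccnd3 region at -1.36, all above the limit of -1.5. Of the genes on the GFI1 target and cell cycle lists, no others were among the 308. The lists gave 2 of 22 GFI1 target regions (9.09%) and 3 of 45 cell cycle regions (6.67%), beside 2.82% of all well-covered regions. The median of the 22 GFI1 target regions was -0.42, and 8 of them were above 0.

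Of 29 genes of fatty acid and sterol synthesis with a well-covered region, 4 were among the 308, or 4 of 36 regions (11.1%, beside 2.82% of all well-covered regions). The median of the 36 was -0.72, near the -0.61 of all well-covered regions, and 3 of the 4 lie in 1 cluster. Fads2, the delta-6 desaturase of polyunsaturated fatty acids, had 627 reads in 36S and 138 in 36N (-2.16), its partner Fads1 576 and 194 (-1.54), and Fads3 131 and 37 (-1.80). They lie within 125.1 kb of chromosome 19, and further regions of Fads3 (396 and 152 reads, -1.35) and Fads1 (174 and 79, -1.11) fell short of the limit.

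Single genes came from other lists. Nfkb1, the p105 and p50 subunit of NF-kB, had 2 regions inside the gene, at chr3:135593701-135595200 with 152 and 35 reads (-2.09) and at chr3:135606451-135609000 with 473 and 160 (-1.54), whereas its strongest region was at -0.10. Il17ra, an interleukin-17 receptor, had 423 and 94 reads (-2.14) 1074 bp upstream of the gene and -0.96 in its stronger region, and F2r, the thrombin receptor, 587 and 176 (-1.71). Cd44, an adhesion receptor, had 144 and 39 reads (-1.86) in a weak region and -0.93 in its stronger one. At Gclm, the modifier subunit of glutathione synthesis and among the 6 members of highest level, 1259 and 392 reads were found (-1.66). No gene of the B cell (12 well-covered regions), NK cell (5), antigen presentation (19), endothelial (4), granulocyte (19), histone (16) or monocyte (25) lists was among the 308. At the 2.82% of all well-covered regions, lists of such sizes would hold few or none. In all, 39 of 346 listed genes with a well-covered region were among the 308, through 40 of 431 regions (9.28%, beside 2.82%).

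The table's Orientation column says how a region lies to its assigned gene. Of the 308 regions, 232 (75.3%, exact interval 70.1 to 80.0) overlapped the gene, 26 (8.44%) lay upstream, 40 (13%) downstream, and 10 (3.25%) had no gene. Of the other well-covered regions 86.7% overlapped, 5.56% lay upstream, 6.05% downstream and 1.69% had none. Regions away from genes had lower levels, so shares were also compared within levels. At levels of 6 to 7 the overlap was 66.4% against 67.3%, at 7 to 8 it was 76.5% against 85.1%, and at 8 or more 95% against 96.7%. Matched on the 36S level, which does not contain the low 36N value, the overlap was 58.8% (of 17 regions) against 67.5% at 6 to 7. It was 64.2% against 80.5% at 7 to 8, 82.1% against 93.2% at 8 to 9, and 97.9% against 98.2% at 9 or more. Upstream regions lay a median of 12382 bp from the gene (230 to 48873) and downstream ones 10868 bp (2179 to 49055).

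Promoters held fewer of the regions. A RefSeq promoter window was overlapped by 126 of the 308 (40.9%, interval 35.4 to 46.6) and by 64.4% of the others. Promoters of protein-coding genes accounted for 92 (29.9%) against 61.0%, and those of other genes for 34 (11%) against 3.40%. Another 137 regions (44.5%) lay in a gene body away from the windows, against 28.0%, and 45 (14.6%) outside genes, against 7.62%. Within levels the order stayed: 18.5% against 32.9% held any promoter at 6 to 7, 52.9% against 62.1% at 7 to 8, and 75% against 80.5% at 8 or more. The mean level contains the low 36N value, so regions were also matched on the 36S level alone. There the shares were 11.8% (2 of 17) against 34.2% at 6 to 7 and 19.7% against 53.2% at 7 to 8. They were 57.5% against 75.6% at 8 to 9, and 75% against 82.2% at 9 or more. The limits confine regions of the set to the upper part of the 6 to 7 bin, so matching there is coarse.

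The coding promoters inside the regions were poor in CG dinucleotides. For 103 promoters of 91 genes the median ratio of observed to expected CpG was 0.351, against 0.802 for 8195 promoters in the other well-covered regions. A ratio of 0.6 or more was found in 34.0% and 80.7%. Within levels the medians were 0.223 against 0.683 at 6 to 7, 0.325 against 0.706 at 7 to 8, and 0.658 against 0.842 at 8 or more. GC content was 56.3% against 62.0%.

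The interferon motif (GAAA, any 2 bases, GAAA) was present in 14 of the 103 (13.6%), in 3.00% of the coding promoters of the other regions and in 3.33% of all coding promoters. The 14 include related genes (Oas1a, Oas1c, Oas1g and Oas3, and Tgtp1 and Tgtp2), and the windows of Ifit1 and Ifit1bl2 overlap. They are therefore not 14 separate cases. Among the 9 listed interferon genes whose own promoter lay in one of the 308 regions, 7 held it, and among 29 with a promoter in the other well-covered regions 16 did. The GATA letters AGATAA were in 17 of the 103 (16.5%), in 5.33% and in 9.65%. Of 7 erythroid genes with a promoter in the 308 regions, 5 held them (Epb42, Epor, Hbb-bs, Rhd and Tmcc2). Among 6 with a promoter in the other well-covered regions, 1 did (Icam4). The letters AAATCA, the core of the GFI1 motif, were in 8.74% against 6.94%, and in 12.4% of all coding promoters. The ETS letters CCGGAAG were in 4.85% against 22.2%, and in 11.6% of all coding promoters. A match is a description of the letters only, and motif frequency also moves with CpG content.

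Lengths ran from 600 to 4200 bp with a median of 2100 (quartiles 1650 and 2850). The other well-covered regions ran from 450 to 18900 bp with the same median of 2100. At equal mean level the 308 were longer, with medians of 1650 against 1350 bp at 6 to 7, 2400 against 1800 at 7 to 8, and 3300 against 2700 at 8 or more. Matched on the 36S level, which the fall in 36N does not lower, the medians were 1350 and 1350 at 6 to 7 (17 regions of the set). They were 1800 and 1800 at 7 to 8, 2550 and 2250 at 8 to 9, and 3450 and 3000 at 9 or more. The longest region, of 4200 bp, was assigned to Chid1.

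Regions of the set lay near one another. Joined where at most 100 kb separated them, 86 of the 308 (27.9%) fell into 39 clusters: 34 pairs, 3 groups of 3, 1 of 4 and 1 of 5. In 17 clusters all regions had the same gene entry, 1 of these being a pair on chromosome 13 with no gene. Each region of the set was paired with its well-covered neighbours, so a pair inside the set counts from both ends. Within 10 kb, 34 of 139 pairs (24.5%) had a neighbour in the set, against 3.39% around the other regions. The share was 10.7% at 10 to 50 kb, 6.03% at 50 to 100 kb, 4.94% at 100 to 250 kb and 2.97% at 250 to 500 kb, where the share around other regions was 2.76%. At 500 to 1000 kb it was 3.60% against 2.73%. The median difference of all neighbours went from -1.10 within 10 kb to -0.62 at 500 to 1000 kb. Near regions can share a gene and are not independent.

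**Figure D4:**
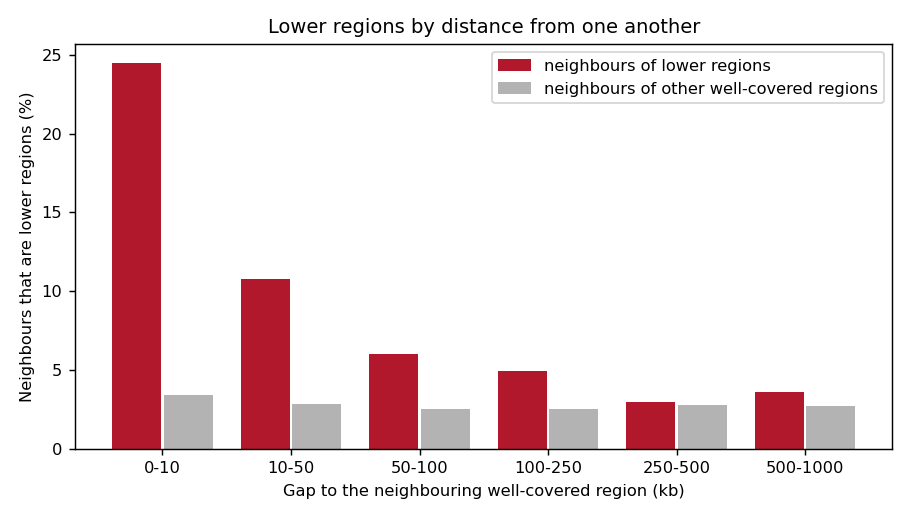
Share of pairs of well-covered regions in which the neighbour is among the 308 (y axis, percent) by distance in kb (x axis). Pairs are counted around regions of the set and around the other well-covered regions. The share falls from 24.5% within 10 kb to 2.97% at 250 to 500 kb around the set and is 3.60% at 500 to 1000 kb, and it stays between 2.52% and 3.39% around the others.

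The group of 5 was the Oas run and the group of 4 was at Zfp652, a zinc finger repressor gene on chromosome 11. The latter 4 regions span 59.55 kb and had differences from -2.39 to -1.62, with 187 and 35 reads in the lowest. RefSeq places them over Gm38957, Gm29933 and Abi3, so the assignment to Zfp652 is the table's. Groups of 3 were the Fads genes, Sh3pxd2a with Obfc1, and Katnal1 with Gm15411 and Hmgb1. Pairs included Acp5, the acid phosphatase of osteoclasts and macrophages (476 and 96 reads, -2.28, and 417 and 139, -1.56), and Nrarp, a feedback inhibitor of Notch signalling (257 and 63 reads, -2.0, and 454 and 144, -1.63).

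**Figure D5:**
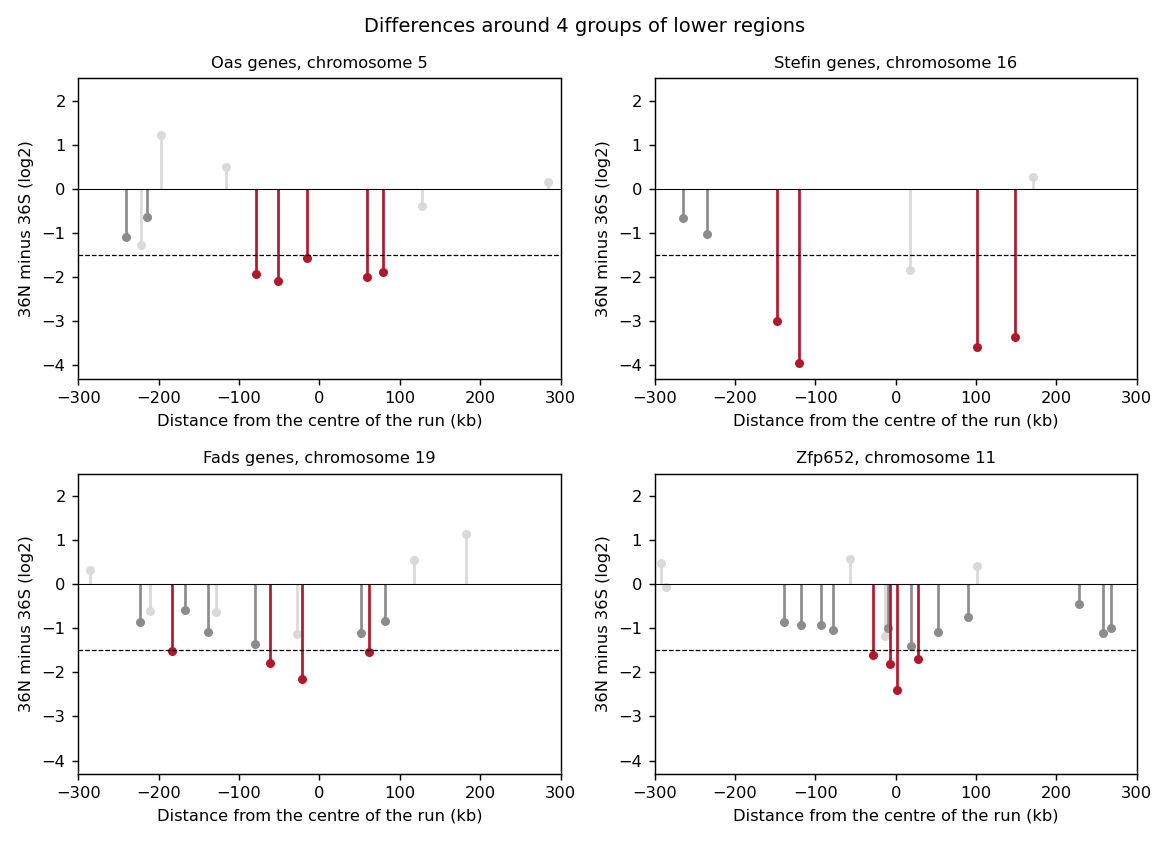
Log2 difference, 36N minus 36S, of every region within 300 kb of the centre of 4 groups, by distance in kb. Red stems are regions among the 308, dark grey stems other well-covered regions and light grey stems regions below the level limit; at the Oas and stefin genes the red stems have no well-covered region between them, and at Fads and Zfp652 others lie among them.

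The share of well-covered regions in the set ran from 1.72% on chromosome 8 to 4% on chromosome 9 (25 of 625), with 3.97% on chromosome 19 and 3.72% on chromosome 17. Chromosome 15, left out by the choice of regions, stood at 14.7% (75 of 511).

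Many of the genes had further regions. The 308 regions carried 278 gene identifiers, of which 18 had 2 or more regions in the set (38 regions in all). Another well-covered region outside the set was assigned to 135 of them, 270 regions in all, with a median difference of -0.83 (-1.48 to 0.88), 185 of them above -1 and 29 above 0. Being outside the set, these regions lie above -1.5 by construction. In 97 genes such a region was stronger than the one in the set, with a median of -0.89. The 102 genes with a single region in the table could not be compared in this way.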

How the data were processed

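H3K9ac was measured in 1 library per genotype (2 in all). Per the submitters' processing notes CASAVA 1.8.2, STAR 2.5.0c, SAMtools and build mm10 were used, without a statement of each role. The sources used here do not say how regions were found or annotated. The authors deposited 1 log2 value per library and region, not divided by length. The values were taken back to reads: they were whole numbers in 36S, apart from 13 regions at a floor of 0.9 standing for 0, and whole multiples of 1.02 in 36N, within 0.01 reads. The difference is that of the deposited log2 values, so it includes this constant, and no pseudocount was added. Total sequencing depth is not known.

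Genes, Orientation and Distance are the table's. RefSeq (GRCm38.p6) gave promoters and overlapping genes, with an overlap of at least 1 bp. For 99 of the 308 regions RefSeq has no overlapping gene of the table's symbol, and in 24 of the regions that overlap their assigned gene RefSeq names another. There were 10 regions with no gene and 3 with symbols turned into dates, which are not named. Some genes that the naming rule takes are not reported here. The region set and the 21 gene lists were chosen with earlier results of these data known. Regions were named by rule: the 25 lowest, those in clusters or on lists, the longest and shortest, those nearest the limits, the 6 of highest level, and genes with several. Regions outside the 308, Actl6b with Tfr2 and the motifs reported were chosen after values were seen. Intervals and the limit were tried on simulated reads with counting error only and no overall shift between libraries. The simulated falls were larger than those of most of the 308, so regions near the limit were not covered. Python 3.11.15, pandas 2.3.3, scipy 1.17.1 and statsmodels 0.14.6 (lowess fraction 0.3) were used. Other limits, scalings, gaps and gene assignments were tried as alternatives.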

Additional observations from a re-analysis of the deposited data

How the results depend on the processing

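With the looser limit tried on the difference the set had 618 regions, 105 clusters, 60 listed genes and a highest chromosome share of 8.18%. With a limit of -2 it had 72 regions, 81.9% overlapping their gene, a median length of 2325 bp, 4 clusters, 11 listed genes and a highest share of 1.29%. A level limit of 5 gave 496 regions, 68.1% overlapping, a median of 1650 bp and 69 clusters. A level limit of 7 gave 162 regions, 83.3%, 2850 bp and 14 clusters. Relative to the median region there were 92 regions, 80.4% overlapping, 6 clusters, 13 listed genes and a highest share of 1.60%. The lowess trend gave 118 regions, a median of 1800 bp, 8 clusters, 15 listed genes and 1.73%, and quantile normalization 129 regions, 1800 bp, 9 clusters, 16 listed genes and 1.73%. With chromosome 15 kept in, the highest share was 14.7%, on that chromosome. Of 63 alternative values 34 moved, all of them given here, and 29 did not. No paired analysis was possible because there is 1 library per genotype, and no library could be left out. The set is therefore fixed by the limits and the scaling, and the spread between animals is unknown.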
